A study of Mus musculus with 18 samples.

Results

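The 10 genes described here are the nuclear receptors *Nr1h3* and *Pparg*, the cholesterol efflux genes *Abca1*, *Abcg1* and *Apoe*, the lipid uptake and binding genes *Cd36*, *Fabp4*, *Fabp5* and *Lpl*, and the oxysterol synthesis gene *Ch25h*. They were chosen by symbol alone, which found 10 of the 62197 genes in the table of normalized counts. All 10 were among the 17875 genes tested, which reached 10 normalized counts in 3 or more of the libraries, and their lowest value anywhere was 114 normalized counts (*Nr1h3*). A normalized count is the number of reads on a gene divided by a size factor for the library, with no scaling for gene length.

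Mouse dendritic cells (DCs) were grown from bone marrow for 10 days with GM-CSF, and their polyadenylated RNA was sequenced with the strand kept. The question was how squeezing a DC changes its gene expression and whether the change depends on cytosolic phospholipase A_2_ (cPLA_2_), an enzyme that frees arachidonic acid from membranes and is encoded by *Pla2g4a*. There were 6 conditions with 3 libraries each. Nonconfined cells were immature DCs without confinement. Confined cells were held at a height of 3 µm and collected 4 h after confinement. LPS-treated cells received 100 ng ml-1 of this bacterial product for 30 min by the labels (25 min by the Methods), were washed and were collected the next day. The treatment text of the labels mentions LPS for all 18 samples, and the titles, which name it for the LPS groups alone, were followed.

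Each treatment was applied to cPLA_2_ WT cells and to cPLA_2_ KO cells, in which floxed *Pla2g4a* is deleted by a Cre under the *Itgax* (CD11c) promoter, so that cells of the culture without CD11c keep the gene. The floxed mice were made with CRISPR–Cas9 and crossed back to C57BL/6 for 7 generations, the controls were littermates or mice matched for age, and marrow donors were 6 to 8 weeks old. The labels do not say whether the 3 libraries of a condition are separate animals or separate cultures, so the tests measure the spread between these libraries. Library kits of 2 kinds were used, and no label assigns a kit to a sample. Nonconfined cPLA_2_ WT libraries held 34689393 to 45020354 reads on genes and nonconfined cPLA_2_ KO libraries 36034820 to 45021696. Confined libraries held 33592725 to 45769637 (cPLA_2_ WT) and 33027230 to 39400286 (cPLA_2_ KO). LPS libraries held 52116837 to 61300021 (labelled cPLA_2_ WT) and 39609637 to 45160523 (labelled cPLA_2_ KO). In the library of lowest depth, 1 read corresponds to 1.07 normalized counts.

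As background, LXRα (the product of *Nr1h3*) and PPARγ are nuclear receptors that bind DNA as partners of RXR. LXRs are activated by oxysterols and raise genes for cholesterol efflux such as *Abca1*, *Abcg1* and *Apoe*, whereas PPARγ is activated by fatty acids and their oxidized products and raises genes for fatty acid uptake and binding such as *Cd36* and *Fabp4*. In macrophages and DCs these receptors tie lipid handling to inflammatory signals, and *Ch25h*, which is induced through Toll-like receptors and interferon, makes an oxysterol.

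The gene deleted in the cPLA_2_ KO mice was read first. *Pla2g4a* (GSMG0002495, chr1:149705372-149837041, minus strand, 18 exons) was at 697, 686 and 770.4 normalized counts in nonconfined cPLA_2_ WT libraries and at 548, 542 and 533 in nonconfined cPLA_2_ KO libraries. In confined DCs it was at 1369, 1430.3 and 1321 (cPLA_2_ WT) and 923, 871 and 919.5 (cPLA_2_ KO). All cPLA_2_ KO libraries lay below all cPLA_2_ WT libraries in both treatments, with log2 fold changes of −0.41 ± 0.06 (SE, limma adjusted p = 0.00019) and −0.60 ± 0.06 (SE, limma adjusted p = 3.81e-08). The table sums reads over the whole gene, so the part of the transcript that was lost could not be read apart. With LPS, *Pla2g4a* was at 1005, 969 and 967 in libraries labelled cPLA_2_ WT and at 1065, 1032 and 1028 in libraries labelled cPLA_2_ KO. Here the libraries labelled cPLA_2_ KO were the higher ones, against their label, and the difference did not pass the test (log2 0.09 ± 0.06, limma adjusted p = 1).

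Genes of the Y chromosome differed between LPS libraries of the same label. The summed level of *Ddx3y*, *Eif2s3y*, *Kdm5d* and *Uty* was 4.57, 1.71 and 2.95 normalized counts in nonconfined cPLA_2_ WT libraries and 1748, 1785 and 1718 in nonconfined cPLA_2_ KO libraries. It was 1.93, 1.72 and 2.37 in confined cPLA_2_ WT libraries and 1868, 1789 and 1837 in confined cPLA_2_ KO libraries. *Xist*, the RNA of the inactive X chromosome, was at 12153 or more in all 18 libraries, so the cPLA_2_ KO libraries held Y reads and *Xist* together. Genotype and donor sex therefore cannot be told apart in the nonconfined and confined libraries. In LPS libraries the Y sum was 2329.9, 3.66 and 1271 (labelled cPLA_2_ WT) and 4.24, 2589 and 1426 (labelled cPLA_2_ KO). Each label thus held 1 library with nearly no Y reads and 2 libraries with many. Read counts of the LPS libraries were also compared pair by pair, by chi-squared per degree of freedom, where 1 is the difference that counting error alone gives. The lowest values were 5.08 for cPLA_2_ WT replicate 2 with cPLA_2_ KO replicate 1 and 6.08 for cPLA_2_ WT replicate 3 with cPLA_2_ KO replicate 3, which carry different labels. The highest was 42.5, for cPLA_2_ WT replicates 1 and 2, which carry the same label. The next highest, 39.2 and 37.8, joined different labels, and the next lowest, 9.55 and 11.7, joined the same label, so the pairs did not sort by label. No conclusion on genotype is drawn from the LPS libraries, which are called by their labels only, and LPS was compared with nonconfined DCs mainly with the labels averaged.

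The scaling between libraries matters for the direction of small changes. With libraries scaled to 1 common total in place of size factors (below, the same total), all genes tested had a median log2 fold change that moved to −0.46 for LPS with the labels averaged, −0.47 and −0.44 for LPS within the labels cPLA_2_ WT and cPLA_2_ KO, and −0.23 for confinement of cPLA_2_ WT DCs. It moved to 0.24 for the interaction, 0.19 for cPLA_2_ KO against cPLA_2_ WT in confined DCs, and 0.27 and 0.46 for confined cPLA_2_ WT and cPLA_2_ KO DCs against LPS. The medians for confinement of cPLA_2_ KO DCs (−0.02) and for genotype in nonconfined DCs (−0.03) stayed within 0.1 of 0. Where a change turns its direction with this scaling, the text says so. Under the same total, genes called higher and lower of 17875 were 3578 and 7380 for confinement of cPLA_2_ WT DCs. For confinement of cPLA_2_ KO DCs they were 3713 and 4627. They were 4741 and 1962 for the interaction, and 3640 and 10160 for LPS with the labels averaged. Within labels they were 3182 and 9294 (cPLA_2_ WT) and 3271 and 9190 (cPLA_2_ KO). Between genotypes in confined DCs they were 6001 and 2604.

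Levels of different genes were compared as normalized counts per kilobase of exons, merged over all annotated transcripts. This length was 4953 bases for *Fabp4*, where it spans the whole gene, 3667 for *Fabp5* and 1387 for the single exon of *Ch25h*. Merged exons can be longer than the transcript in the cells, to an extent that differs between genes. The order between genes is therefore approximate and depends on this choice of length. In nonconfined cPLA_2_ WT DCs the highest of the 10 levels were those of *Fabp5* (2908 ± 49.9 per kilobase, SD, n = 3) and *Lpl* (2750.1 ± 62.6), followed by *Ch25h* (312 ± 33.7), *Abcg1* (217 ± 8.94) and *Cd36* (129.8 ± 4.21). *Abca1* (57.1 ± 2.06), *Pparg* (53.3 ± 2.12), *Fabp4* (45.2 ± 0.972), *Apoe* (39.6 ± 3.06) and *Nr1h3* (23.5 ± 0.786) came below them. No neighbours in this order overlapped between libraries. *Abca1* changed its place most: it was the lowest of the 10 per kilobase in nonconfined cPLA_2_ KO DCs (26.7 ± 5.40) and in confined cPLA_2_ KO DCs (28.9 ± 2.11), and the fourth in confined cPLA_2_ WT DCs (392 ± 21.7), above *Cd36* with no overlap. With LPS, *Ch25h* came level with the highest genes per kilobase (3219 ± 334 in libraries labelled cPLA_2_ WT, beside 3281 ± 109.6 for *Lpl* and 3545 ± 264 for *Fabp5*), and these 3 genes overlapped between libraries.

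**Figure D1:**
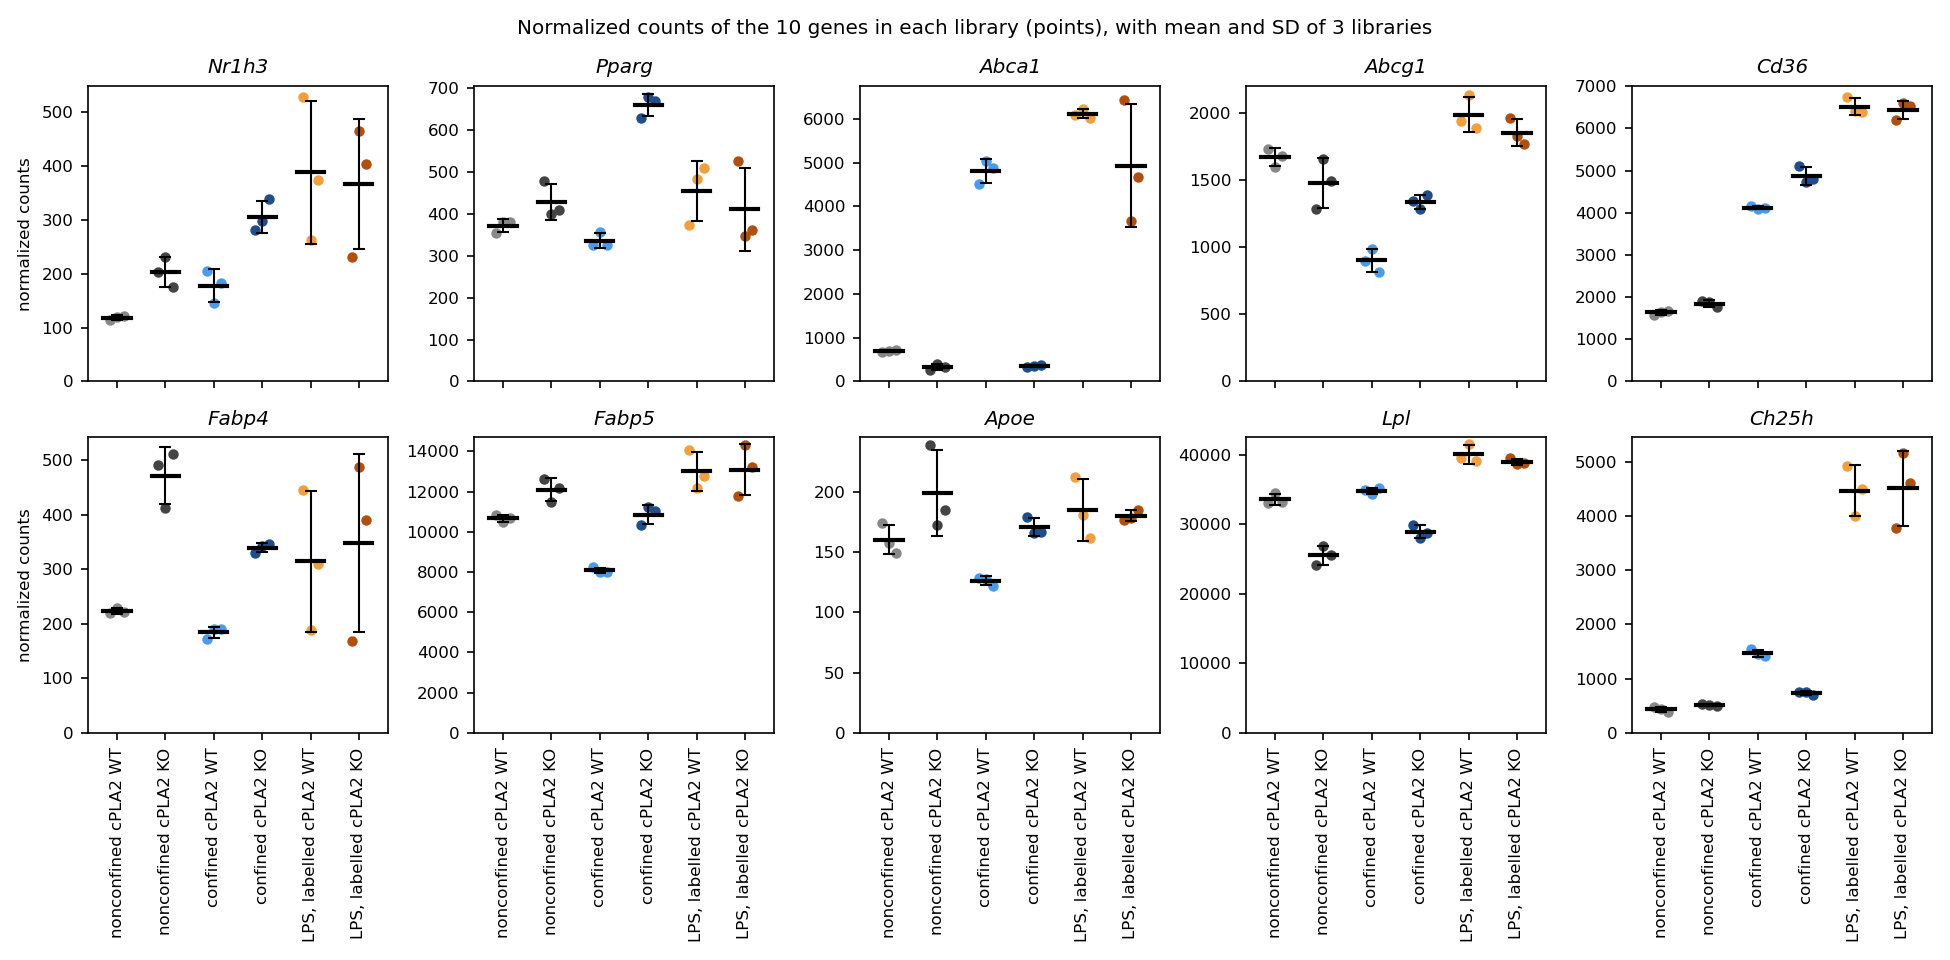
Normalized counts (vertical axes, from 0) of the 10 genes in each of 18 libraries, as points by condition, with the mean and SD of 3 libraries as bars. *Abca1* lay at 4513 or more in the confined cPLA_2_ WT libraries and at 376 or less in the confined cPLA_2_ KO libraries.

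*Nr1h3* (GSMG0032390, chr2:91014406-91025461, minus strand, 10 exons) encodes the oxysterol receptor LXRα. It was at 114, 120.2 and 122 normalized counts in nonconfined cPLA_2_ WT libraries and at 203, 231 and 176 in nonconfined cPLA_2_ KO libraries. After confinement it was at 205, 145 and 184 in cPLA_2_ WT libraries and at 282, 298 and 338 in cPLA_2_ KO libraries. Every confined library lay above every nonconfined library of its genotype, and every cPLA_2_ KO library above every cPLA_2_ WT library of its treatment. In LPS libraries *Nr1h3* was at 528, 263 and 374 (labelled cPLA_2_ WT) and 231, 465 and 405 (labelled cPLA_2_ KO), above all 6 nonconfined libraries but spread widely. The lowest LPS values, 263 and 231, belonged to the libraries with nearly no Y reads. With confinement *Nr1h3* rose by a log2 fold change of 0.56 ± 0.22 (SE, limma adjusted p = 0.0381) in the cPLA_2_ WT DCs and of 0.59 ± 0.22 (SE, limma adjusted p = 0.0364) in the cPLA_2_ KO DCs. The difference between these changes was 0.03 (95% interval −0.63 to 0.69) and did not pass the test. It was higher in the cPLA_2_ KO DCs than in the cPLA_2_ WT DCs by 0.76 ± 0.22 (SE, limma adjusted p = 0.038) without confinement and by 0.79 ± 0.22 (SE, limma adjusted p = 0.0079) with it. The call with confinement in cPLA_2_ WT DCs ended without nonconfined replicate 1, 2 or 3 or confined replicate 1 or 3 (adjusted p from 0.0667 to 0.139), and under the same total (0.34, adjusted p = 0.191). The call in cPLA_2_ KO DCs ended without nonconfined replicate 1 or 3 or confined replicate 2 or 3 (0.0682 to 0.133). The genotype call in nonconfined DCs ended without any of the 6 libraries (0.0589 to 0.115). These 3 calls also ended with a replicate block (adjusted p = 0.0526, 0.0509 and 0.0598) and without the filter (0.0648, 0.0618 and 0.0676). With LPS *Nr1h3* rose by 1.22 ± 0.16 (SE, limma adjusted p = 5.57e-07), a 2.33-fold change, and by 1.497 (adjusted p = 7.82e-11) without the LPS libraries that lack Y reads.

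*Pparg* (GSMG0044903, chr6:115337912-115467362, plus strand, 8 exons) encodes the fatty acid receptor PPARγ. Its level was 354, 379 and 380.3 normalized counts in nonconfined cPLA_2_ WT libraries and 476, 398 and 408 in nonconfined cPLA_2_ KO libraries. Confined cPLA_2_ WT libraries had 326, 356 and 325 and confined cPLA_2_ KO libraries 628, 678 and 669. Confined cPLA_2_ KO DCs thus stood above all other groups, including LPS libraries at 373, 483 and 507 (labelled cPLA_2_ WT) and 524, 346 and 361 (labelled cPLA_2_ KO). *Pparg* rose with confinement in cPLA_2_ KO DCs by 0.63 ± 0.13 (SE, limma adjusted p = 0.000511), or 1.54-fold, whereas in cPLA_2_ WT DCs the change was −0.15 ± 0.13 (SE, limma adjusted p = 0.36), which passed only under the same total (−0.37, adjusted p = 0.0259). The difference between the genotypes passed the test (interaction 0.77 ± 0.19, limma adjusted p = 0.00342). In confined DCs *Pparg* was 1.96-fold higher in cPLA_2_ KO than in cPLA_2_ WT libraries (log2 0.97 ± 0.13, limma adjusted p = 3.65e-06). Without confinement the genotypes did not overlap, but the difference of 0.20 ± 0.13 (SE, limma adjusted p = 0.409) did not pass. With LPS its change was 0.10 ± 0.09 (SE, limma adjusted p = 0.348), which turned to −0.40 (adjusted p = 0.0011) under the same total, 0.06 above the median of all genes. Within the labels the change was 0.41 (adjusted p = 0.0101) without LPS cPLA_2_ WT replicate 1 and −0.27 (adjusted p = 0.0484) without LPS cPLA_2_ KO replicate 1, against 0.28 and −0.08 with all libraries. With label cPLA_2_ KO it also passed under the same total (−0.56, adjusted p = 0.00132).

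*Abca1* (GSMG0038107, chr4:53030789-53159896, minus strand, 50 exons), a transporter that moves cholesterol and phospholipids out of the cell to lipid-poor apolipoproteins, set the cPLA_2_ WT and cPLA_2_ KO DCs apart. Nonconfined cPLA_2_ WT libraries had 677, 699 and 727 normalized counts and nonconfined cPLA_2_ KO libraries 263, 396 and 323. Confined cPLA_2_ WT libraries had 4513, 5032 and 4880.1, whereas confined cPLA_2_ KO libraries had 326, 361 and 376. The confined cPLA_2_ WT libraries stood far above the nonconfined ones, while confined and nonconfined cPLA_2_ KO libraries overlapped. *Abca1* rose 6.85-fold with confinement in cPLA_2_ WT DCs (log2 2.78 ± 0.14, limma adjusted p = 3.12e-13). In cPLA_2_ KO DCs the change was 0.13 ± 0.14 (95% interval −0.16 to 0.43, limma adjusted p = 0.472). With 1 library left out this change ran from −0.01 to 0.28 and did not pass. The interaction was −2.64 ± 0.20 (SE, limma adjusted p = 8.12e-10). *Abca1* was lower in cPLA_2_ KO DCs already without confinement, by a factor of 2.17 (log2 −1.12 ± 0.14, limma adjusted p = 3.74e-05), and by a factor of 13.5 in confined DCs (log2 −3.76 ± 0.14, limma adjusted p = 2.57e-15). LPS libraries labelled cPLA_2_ WT had 6089, 6229 and 6023 normalized counts and those labelled cPLA_2_ KO 6439, 3669 and 4678. All 6 lay above all nonconfined libraries, and cPLA_2_ KO replicates 2 and 3 lay below the other 4. *Abca1* rose 11.4-fold with LPS (log2 3.51 ± 0.10, limma adjusted p = 3.09e-18). Confined cPLA_2_ WT DCs overlapped with the LPS libraries (log2 −0.17 ± 0.12, limma adjusted p = 0.243), and only without LPS cPLA_2_ KO replicate 2 did this difference pass (−0.27, adjusted p = 0.0299; 0.0299 to 0.629 over all alternatives).

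*Abcg1* (GSMG0023016, chr17:31276668-31336958, plus strand, 15 exons), which exports cholesterol to high-density lipoprotein, moved in the opposite direction to *Abca1* in confined cPLA_2_ WT DCs. It was at 1736, 1599 and 1680.4 normalized counts in nonconfined cPLA_2_ WT libraries and at 1283, 1659.8 and 1497 in nonconfined cPLA_2_ KO libraries. Confinement left it at 901, 989 and 817 in cPLA_2_ WT libraries and at 1344, 1286 and 1389.7 in cPLA_2_ KO libraries. The confined cPLA_2_ WT libraries were the lowest of all conditions, with no overlap, and the cPLA_2_ KO libraries overlapped between treatments. *Abcg1* fell with confinement in cPLA_2_ WT DCs (log2 −0.89 ± 0.08, limma adjusted p = 6.25e-09) to a level lower by a factor of 1.86. In cPLA_2_ KO DCs the change was −0.14 ± 0.08 (SE, limma adjusted p = 0.188), which passed only without nonconfined cPLA_2_ KO replicate 1 (−0.24, adjusted p = 0.0225; 0.0225 to 0.662 over all alternatives). The interaction was 0.76 ± 0.12 (SE, limma adjusted p = 3.48e-05), and confined cPLA_2_ KO DCs had more *Abcg1* than confined cPLA_2_ WT DCs (0.57 ± 0.08, limma adjusted p = 8.07e-06). In nonconfined DCs the genotype difference of −0.18 ± 0.08 (SE, limma adjusted p = 0.191) passed only without cPLA_2_ KO replicate 2 (−0.27, adjusted p = 0.0399; 0.0399 to 0.67 over all alternatives). LPS libraries had 1942, 2136 and 1889 (labelled cPLA_2_ WT) and 1967, 1827 and 1768 (labelled cPLA_2_ KO), all above the nonconfined libraries. *Abcg1* was higher with LPS by 0.29 ± 0.06 (SE, limma adjusted p = 0.000137), which turned to −0.21 under the same total, 0.25 above the median of all genes. Within the label cPLA_2_ WT its rise of 0.25 ± 0.08 lost its call without nonconfined cPLA_2_ WT replicate 2 (0.22, adjusted p = 0.0521) or LPS cPLA_2_ WT replicate 2 (0.20, adjusted p = 0.0627), and turned under the same total.

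*Apoe* (GSMG0050588, chr7:19430034-19433113, minus strand, 4 exons) encodes apolipoprotein E, a carrier of cholesterol and a ligand of lipoprotein receptors. It was at 174, 158 and 149 normalized counts in nonconfined cPLA_2_ WT libraries and at 239, 172 and 184 in nonconfined cPLA_2_ KO libraries. Confined libraries had 129, 128 and 122 (cPLA_2_ WT) and 179, 165 and 167 (cPLA_2_ KO), and LPS libraries 212, 180.3 and 161 (labelled cPLA_2_ WT) and 176, 178 and 185 (labelled cPLA_2_ KO). The confined cPLA_2_ WT libraries were the lowest and overlapped with no other group. *Apoe* fell with confinement in cPLA_2_ WT DCs (log2 −0.34 ± 0.13, limma adjusted p = 0.0347), a call that ended with TMM scaling, edgeR and DESeq2 (adjusted p = 0.0515, 0.0532 and 0.0526; 0.000704 to 0.127 over all alternatives). It also ended without confined replicate 1, 2 or 3 or nonconfined replicate 1 or 2, the least change being −0.28 without nonconfined replicate 1. The change in cPLA_2_ KO DCs was −0.21 ± 0.13 and the interaction 0.14 ± 0.19, with adjusted p = 0.222 and 0.66. With 1 library left out they ran from −0.30 to −0.07 and from 0.04 to 0.28, and neither passed. *Apoe* was higher in confined cPLA_2_ KO than in confined cPLA_2_ WT DCs (0.43 ± 0.13, limma adjusted p = 0.0137), except without confined cPLA_2_ KO replicate 1 (0.39, adjusted p = 0.0503). With LPS its change was 0.03 ± 0.09 (SE, limma adjusted p = 0.753), which turned to −0.46 under the same total, at the median of all genes (0.00 from it).

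*Cd36* (GSMG0041608, chr5:17986688-18093957, minus strand, 15 exons) encodes a scavenger receptor that takes up oxidized low-density lipoprotein and long-chain fatty acids, and it rose in both genotypes and with LPS. Nonconfined libraries had 1578, 1659 and 1678 (cPLA_2_ WT) and 1906, 1877 and 1765 (cPLA_2_ KO) normalized counts. In confined libraries it was at 4165, 4086 and 4119.7 (cPLA_2_ WT) and 5122, 4725 and 4791 (cPLA_2_ KO). LPS libraries had 6749, 6411 and 6386 (labelled cPLA_2_ WT) and 6197, 6609 and 6525 (labelled cPLA_2_ KO). The treatments did not overlap, in the order nonconfined, confined, LPS, and cPLA_2_ KO lay above cPLA_2_ WT in both of the first treatments. *Cd36* rose with confinement 2.52-fold in cPLA_2_ WT DCs (log2 1.33 ± 0.05, limma adjusted p = 5.67e-16) and 2.64-fold in cPLA_2_ KO DCs (log2 1.40 ± 0.05, limma adjusted p = 1.21e-15). The interaction was 0.07 (95% interval −0.07 to 0.21, limma adjusted p = 0.508) and passed only under the same total (0.26, adjusted p = 0.00203), 0.02 from the median of all genes. cPLA_2_ KO DCs had more *Cd36* by 0.17 ± 0.05 (SE, limma adjusted p = 0.0228) without confinement and by 0.24 ± 0.05 (SE, limma adjusted p = 0.000266) with it. The first of these calls ended without nonconfined cPLA_2_ WT replicate 1 or 2 or cPLA_2_ KO replicate 1 (adjusted p = 0.104, 0.055 and 0.107) or with the nonconfined libraries alone (0.0734; 0.00717 to 0.107 over all alternatives). With LPS *Cd36* rose 3.72-fold (log2 1.90 ± 0.03, limma adjusted p = 5.42e-22).

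*Fabp4* (GSMG0034965, chr3:10269389-10273676, minus strand, 4 exons) and *Fabp5* (GSMG0056568, chr3:10077645-10081670, plus strand, 4 exons) encode cytosolic carriers of fatty acids and lie within the same stretch of chromosome 3. *Fabp4* was at 221, 229 and 221 normalized counts in nonconfined cPLA_2_ WT libraries and at 492, 413 and 511 in nonconfined cPLA_2_ KO libraries. In confined libraries it was at 173, 190.4 and 191 (cPLA_2_ WT) and 330.2, 342 and 347 (cPLA_2_ KO). The genotypes were far apart in both treatments, and confined libraries lay below nonconfined ones in each genotype. *Fabp4* was 2.10-fold higher in nonconfined cPLA_2_ KO than cPLA_2_ WT DCs (log2 1.07 ± 0.28, limma adjusted p = 0.0188) and 1.84-fold higher in confined ones (0.88 ± 0.28, limma adjusted p = 0.015). The first call ended without nonconfined cPLA_2_ WT replicate 1, 2 or 3 or cPLA_2_ KO replicate 1 or 3 (adjusted p from 0.0561 to 0.0764), with the log2 difference between 1.01 and 1.09. The changes with confinement, −0.28 ± 0.28 in cPLA_2_ WT cells and −0.47 ± 0.28 in cPLA_2_ KO cells, did not pass (limma adjusted p = 0.415 and 0.178). They passed when only the nonconfined and confined libraries of the 1 genotype were fitted (adjusted p = 0.0378 and 0.0039). *Fabp4* varied most among the LPS libraries, at 446, 189 and 309.7 (labelled cPLA_2_ WT) and 169, 487 and 389.9 (labelled cPLA_2_ KO), with 189 and 169 in the libraries with nearly no Y reads. Its change with LPS was −0.08 ± 0.20 (SE, limma adjusted p = 0.726) with all libraries and turned to 0.31 (adjusted p = 0.007) without the libraries that lack Y reads. Under the same total it was −0.58 (adjusted p = 0.0107), −0.11 from the median of all genes. Within labels it became 0.73 (adjusted p = 0.0214) without LPS cPLA_2_ WT replicate 2 and −0.87 (adjusted p = 0.00823) without LPS cPLA_2_ KO replicate 2, against 0.40 and −0.56. Over all removals of 1 library it ran from 0.11 to 0.73 with label cPLA_2_ WT and from −0.87 to −0.11 with label cPLA_2_ KO. With label cPLA_2_ KO and the same total it was −1.04 (adjusted p = 0.00203).

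**Figure D2:**
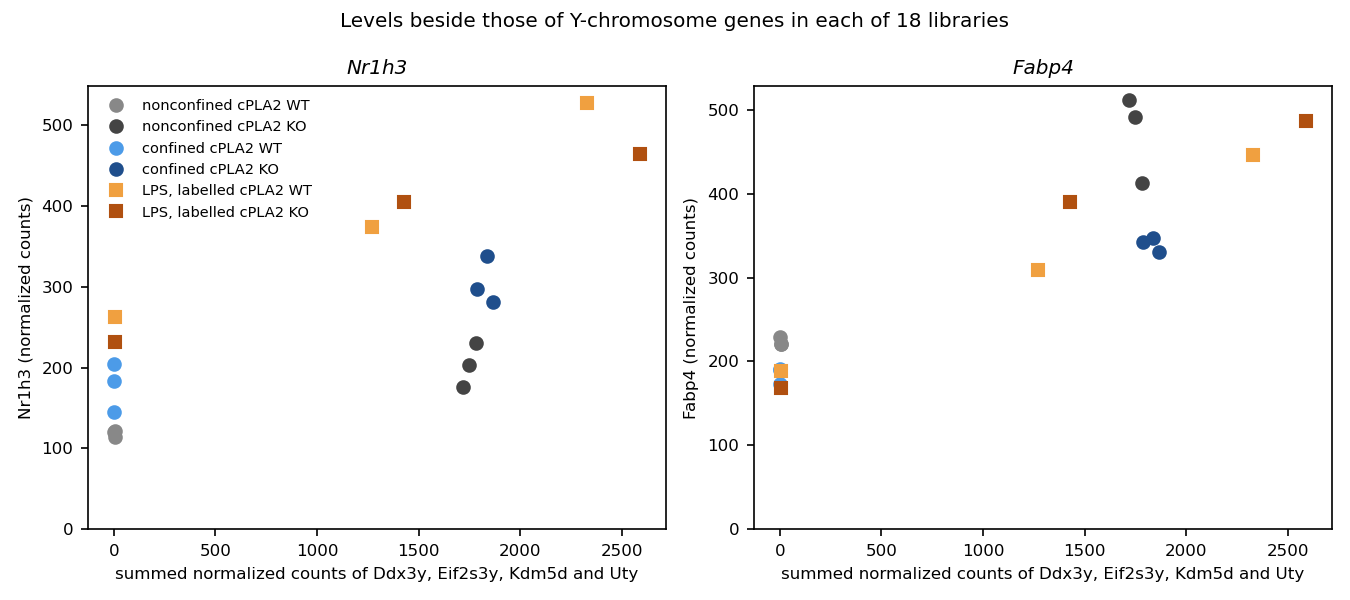
Normalized counts of *Nr1h3* and *Fabp4* (vertical axes) against the summed normalized counts of 4 Y-chromosome genes (horizontal axes) in each of 18 libraries, by condition. Among LPS libraries (squares), the 2 with a Y sum under 20 had the lowest values of both genes, 231 and 263 for *Nr1h3* and 169 and 189 for *Fabp4*.

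*Fabp5* was far more abundant per kilobase than *Fabp4*, and its values are uncertain to the extent that reads were shared with its near-identical processed copy *Fabp5l2*. Nonconfined libraries had 10833, 10469.6 and 10687 (cPLA_2_ WT) and 12627, 11473 and 12185 (cPLA_2_ KO) normalized counts. Confined libraries had 8245, 7981 and 8006 (cPLA_2_ WT) and 10328, 11212 and 11015 (cPLA_2_ KO), and LPS libraries 14067, 12175 and 12754 (labelled cPLA_2_ WT) and 11754, 14289 and 13229.7 (labelled cPLA_2_ KO). Confined cPLA_2_ WT libraries were the lowest, with no overlap with any other group. *Fabp5* fell with confinement in cPLA_2_ WT DCs (log2 −0.40 ± 0.06, limma adjusted p = 8.54e-06) and, by less, in cPLA_2_ KO DCs (−0.16 ± 0.06, limma adjusted p = 0.0416). The call in cPLA_2_ KO DCs ended without nonconfined replicate 1 or 3 or confined replicate 1 or 3 (adjusted p from 0.0643 to 0.16), with a replicate block (0.0584) and without the filter (0.0741). The interaction of 0.24 ± 0.09 (SE, limma adjusted p = 0.0416) ended without any of the 12 libraries but nonconfined and confined cPLA_2_ KO replicates 1, by edgeR (0.0903), with TMM scaling (0.0861), without the filter (0.0764) and with a replicate block (0.0608). For the libraries left out, the adjusted p ran from 0.0518 to 0.0987 and the difference from 0.21 to 0.26. Confined cPLA_2_ KO DCs had more *Fabp5* than confined cPLA_2_ WT DCs (0.43 ± 0.06, limma adjusted p = 8.14e-06). Nonconfined cPLA_2_ KO DCs differed by 0.18 ± 0.06 (SE, limma adjusted p = 0.072), which passed by DESeq2 (adjusted p = 0.0384), with the nonconfined libraries alone (0.0422) and without cPLA_2_ KO replicate 2 (0.22, adjusted p = 0.0384; 0.0384 to 0.262 over all alternatives). With LPS *Fabp5* was higher by 0.20 ± 0.04 (SE, limma adjusted p = 0.00035), which turned to −0.30 under the same total, 0.16 above the median of all genes.

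*Lpl* (GSMG0053428, chr8:69333205-69360100, plus strand, 10 exons) encodes lipoprotein lipase, which frees fatty acids from triglycerides of lipoproteins. It was at 33077, 34496 and 33286 normalized counts in nonconfined cPLA_2_ WT libraries and at 24158, 26914 and 25574 in nonconfined cPLA_2_ KO libraries. Confined libraries had 35003, 34364 and 35235 (cPLA_2_ WT) and 29914, 28039 and 28825 (cPLA_2_ KO). All cPLA_2_ KO libraries lay below all cPLA_2_ WT libraries, in both treatments. *Lpl* was lower in cPLA_2_ KO DCs without confinement (log2 −0.40 ± 0.04, limma adjusted p = 4.88e-06) and with it (−0.27 ± 0.04, limma adjusted p = 2.41e-05). Under the same total the difference in confined DCs was −0.11, −0.31 from the median of all genes, and still passed. With confinement *Lpl* rose in cPLA_2_ KO DCs (0.18 ± 0.04, limma adjusted p = 0.0014). In cPLA_2_ WT DCs the change was 0.05 ± 0.04 (SE, limma adjusted p = 0.304), which turned to −0.17 (adjusted p = 0.00193) under the same total, 0.05 above the median of all genes. The interaction of 0.13 ± 0.06 (SE, limma adjusted p = 0.129) passed only without nonconfined cPLA_2_ KO replicate 2 (0.17, adjusted p = 0.0363) and under the same total (0.32), with 0.000485 to 0.305 over all alternatives. LPS libraries had 39545, 41645 and 39154 (labelled cPLA_2_ WT) and 39506, 38675 and 38818 (labelled cPLA_2_ KO), above all nonconfined libraries. *Lpl* was higher with LPS by 0.43 ± 0.03 (SE, limma adjusted p = 1.92e-11), which turned to −0.06 (adjusted p = 0.0688) under the same total, 0.40 above the median of all genes.

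*Ch25h* (GSMG0028428, chr19:34451178-34452554, minus strand, 1 exon) encodes the hydroxylase that makes an oxysterol from cholesterol. Nonconfined libraries had 472, 445 and 381 (cPLA_2_ WT) and 529.7, 512 and 505 (cPLA_2_ KO) normalized counts. Confined libraries had 1543, 1447 and 1414 (cPLA_2_ WT) and 757, 746 and 696 (cPLA_2_ KO), and LPS libraries 4914, 3988 and 4492 (labelled cPLA_2_ WT) and 3769.8, 5149 and 4602 (labelled cPLA_2_ KO). The 3 treatments did not overlap in either genotype, and in confined DCs the cPLA_2_ WT libraries were all above the cPLA_2_ KO libraries. *Ch25h* rose with confinement 3.40-fold in cPLA_2_ WT DCs (log2 1.76 ± 0.10, limma adjusted p = 1.04e-12) and 1.42-fold in cPLA_2_ KO DCs (0.51 ± 0.10, limma adjusted p = 0.000178). The interaction was −1.26 ± 0.14 (SE, limma adjusted p = 2.65e-07), and confined cPLA_2_ KO DCs had less *Ch25h* than confined cPLA_2_ WT DCs (−1.001 ± 0.10, limma adjusted p = 2.45e-08). Without confinement the difference of 0.26 ± 0.10 did not pass (adjusted p = 0.107), although the groups did not overlap. With LPS *Ch25h* rose 9.44-fold (log2 3.24 ± 0.07, limma adjusted p = 1.47e-20).

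Confinement of cPLA_2_ WT DCs was the first comparison counted over the 10 genes. *Nr1h3*, *Abca1*, *Cd36* and *Ch25h* rose and *Abcg1*, *Apoe* and *Fabp5* fell, so 4 of 10 were called higher beside 28.2% of all genes tested and 3 of 10 lower beside 28.4%. Calls with an absolute log2 fold change above 1 besides were 3 higher (*Abca1*, *Cd36* and *Ch25h*) beside 11.4% and 0 lower beside 7.62%. That count of 0 from limma was 0 also at an unadjusted p under 0.05, by edgeR and by DESeq2, with *Abcg1* the lowest at −0.89, and 1 (*Abcg1*) under the same total. Without that threshold edgeR and DESeq2 each called 4 higher and 2 lower, all but *Apoe*. In 8 of the 10 genes the groups did not overlap. The share of all genes without overlap was not computed, so this count is a description only. The median over the 10 genes was −0.05, beside −0.01 over all genes. Of all calls in this comparison, 49.82% were higher, and 32.65% under the same total, where 3 of the 10 genes were higher and 5 lower.

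In confined cPLA_2_ KO DCs, *Nr1h3*, *Pparg*, *Cd36*, *Lpl* and *Ch25h* rose and *Fabp5* fell. These were 5 of 10 higher beside 22.8% of all genes and 1 of 10 lower beside 23.4%. With an absolute log2 fold change above 1 there was 1 higher (*Cd36*) beside 6.43% and 0 lower beside 5.53% by limma, and 0 also at an unadjusted p under 0.05, by edgeR and by DESeq2. Without that threshold edgeR and DESeq2 each called 5 higher and 1 lower. The median over the 10 genes was 0.16, beside 0.01 over all genes. The groups did not overlap in 7 genes, again without a share over all genes to set beside it.

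The change with confinement differed between the genotypes in 5 of the 10 genes. *Pparg*, *Abcg1* and *Fabp5* had the more positive change in cPLA_2_ KO DCs (3 of 10 beside 10.2% of all genes) and *Abca1* and *Ch25h* the more negative (2 of 10 beside 15.6%). DESeq2 called the same split of 3 and 2, and edgeR and TMM scaling 2 and 2, without *Fabp5*. With an absolute difference above 1 there were 2 of 10 lower (*Abca1* and *Ch25h*) beside 6.56% and 0 of 10 higher beside 1.11% by limma, and 0 also at an unadjusted p under 0.05, by edgeR and by DESeq2. The highest difference was that of *Pparg*, 0.77. Of all calls, 39.47% were higher, and 70.73% under the same total, where 5 of the 10 genes were higher and 2 lower.

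With LPS and the labels averaged, *Nr1h3*, *Abca1*, *Abcg1*, *Cd36*, *Fabp5*, *Lpl* and *Ch25h* were higher, which are 7 of 10 beside 37.2% of all genes. By limma 0 of 10 were lower beside 34.3%, and 0 were at an unadjusted p under 0.05, by edgeR or by DESeq2, but 5 were lower under the same total (*Pparg*, *Abcg1*, *Fabp4*, *Fabp5* and *Apoe*). Those 5 stand beside 10160 of 17875 genes called lower under that scaling. With an absolute log2 fold change above 1 there were 4 higher (*Nr1h3*, *Abca1*, *Cd36* and *Ch25h*) beside 15.6% and 0 lower beside 13.4%, and 0 lower also at an unadjusted p under 0.05, by edgeR and by DESeq2. Under the same total 3 of these 4 were above 1, with *Nr1h3* at 0.73. Of all calls, 52.04% were higher, and 26.38% under the same total. Within the label cPLA_2_ WT, 7 of 10 were higher beside 33.4% and 0 lower beside 29.4%. Within the label cPLA_2_ KO, 6 of 10 were higher beside 33.4%, all but *Fabp5* of those 7, and 0 lower beside 30.1%. For both labels limma gave 0 lower at an unadjusted p under 0.05 and edgeR and DESeq2 0, while under the same total each label had 4 higher and 4 lower. There, within the label cPLA_2_ WT, *Pparg* turned to −0.23 (0.24 from the median of all genes), *Abcg1* to −0.26 (0.21), *Apoe* to −0.31 (0.16), *Fabp4* to −0.11 (0.36), *Fabp5* to −0.23 (0.24) and *Lpl* to −0.26 (0.21). Within the label cPLA_2_ KO, *Abcg1* turned to −0.15 (0.30) and *Fabp5* to −0.37 (0.07), and *Nr1h3* did not pass (0.32, adjusted p = 0.204). *Apoe* passed as lower there under the same total (−0.60, adjusted p = 0.000294). *Fabp5* within the label cPLA_2_ KO (0.11) passed as higher without LPS cPLA_2_ KO replicate 1 (0.19, adjusted p = 0.00799) and without both libraries that lack Y reads (adjusted p = 0.004). Without the LPS libraries that lack Y reads, a choice made after seeing the data, 8 of 10 passed with the labels averaged, 7 within the label cPLA_2_ WT and 8 within the label cPLA_2_ KO. Of the calls within labels, 53.15% (cPLA_2_ WT) and 52.59% (cPLA_2_ KO) were higher, and 25.5% and 26.25% under the same total.

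**Figure D3:**
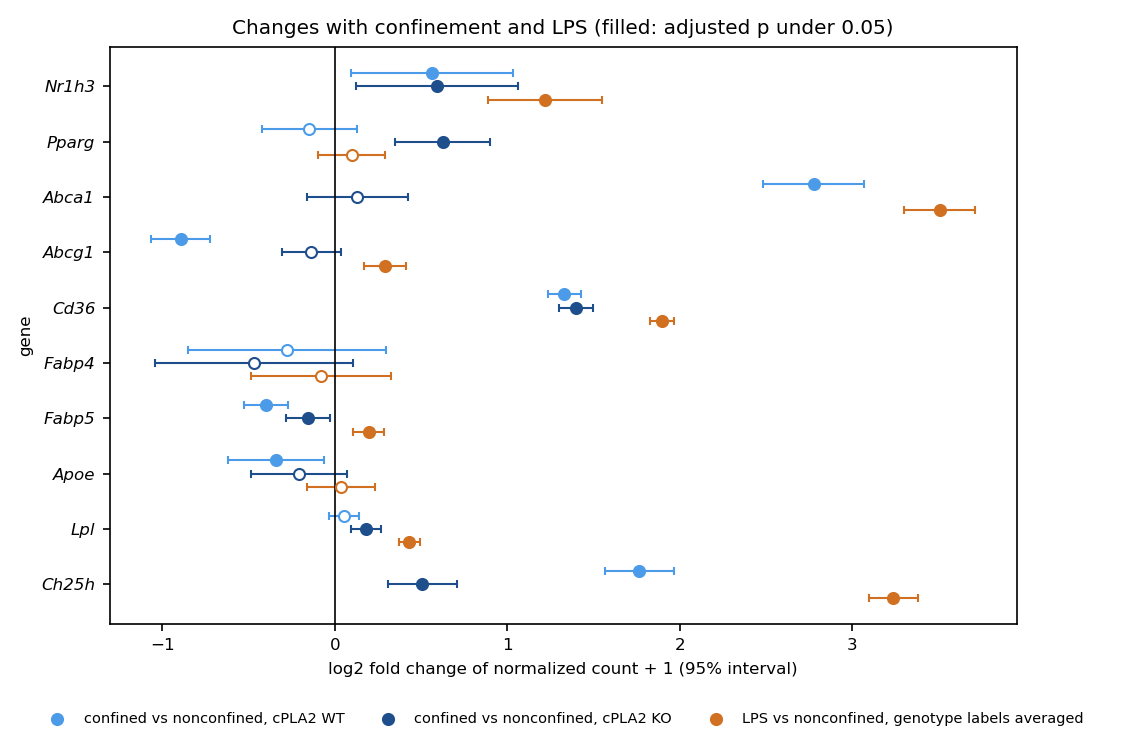
Log2 fold change (horizontal axis) of each of the 10 genes in confined cPLA_2_ WT DCs, in confined cPLA_2_ KO DCs and with LPS with the labels averaged, with 95% intervals; filled points passed the test. *Abca1* rose by 2.78 with confinement in cPLA_2_ WT DCs beside 0.13 in cPLA_2_ KO DCs, and the small LPS changes of *Abcg1*, *Fabp5* and *Lpl* turned under the same total.

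Between the genotypes without confinement, *Nr1h3*, *Cd36* and *Fabp4* were higher in cPLA_2_ KO DCs (3 of 10 beside 4.78% of all genes) and *Abca1* and *Lpl* lower (2 of 10 beside 4.11%). The count of 5 was 2 without cPLA_2_ WT replicate 1 or 2 or cPLA_2_ KO replicate 1, 3 without cPLA_2_ WT replicate 3 or cPLA_2_ KO replicate 3, and 6 without cPLA_2_ KO replicate 2. Of all calls, 53.78% were higher, and 42.01% under the same total. In confined DCs all 10 genes passed the test: *Nr1h3*, *Pparg*, *Abcg1*, *Apoe*, *Cd36*, *Fabp4* and *Fabp5* were higher in cPLA_2_ KO DCs (7 of 10 beside 18.8%) and *Abca1*, *Lpl* and *Ch25h* lower (3 of 10 beside 20.6%). With an absolute log2 difference above 1, 0 of 10 were higher beside 2.79%, the highest being 0.97 for *Pparg* (limma; 0 also at an unadjusted p under 0.05, by edgeR and by DESeq2, and 2 under the same total), and 2 of 10 lower (*Abca1* and *Ch25h*) beside 7.31%. Under the same total 1 of 10 was lower at that threshold, with *Ch25h* at −0.85. edgeR and DESeq2 called the 10 genes in the same split of 7 higher and 3 lower. Of all calls, 47.68% were higher, and 69.74% under the same total, where the split of the 10 genes was 7 and 3. The groups did not overlap in any of the 10 genes, and in 8 of 10 without confinement, with no share over all genes computed for either count. With LPS the labels gave 0 of 10 higher and 0 lower beside 0% of all genes in each direction: limma called 0 of 17875 genes, edgeR 0 and DESeq2 0, and at an unadjusted p under 0.05 there were 890 genes and 1 of the 10 (*Abca1*, −0.35, limma unadjusted p = 0.0219).

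Confined DCs were last compared with LPS-treated DCs, whose labels were averaged. Confined cells were collected 4 h after confinement and LPS cells the next day, so treatment and time cannot be told apart here. In confined cPLA_2_ WT DCs 0 of 10 genes were higher beside 24.5% of all genes, and 9 of 10, all but *Abca1*, were lower beside 29.8%. The count of 0 higher held at an unadjusted p under 0.05 in limma and in edgeR and DESeq2, but under the same total *Lpl* turned to 0.11 and passed, −0.16 from the median of all genes, *Abca1* turned to 0.12 (−0.15) without passing, and 5 genes were lower, without *Pparg* (−0.06), *Fabp4* (−0.44) and *Apoe* (−0.24). The largest differences were those of *Ch25h* (−1.60 ± 0.08, limma adjusted p = 6.56e-13), *Abcg1* (−1.09 ± 0.07, limma adjusted p = 2.89e-11) and *Nr1h3* (−1.04 ± 0.19, limma adjusted p = 0.00012). In confined cPLA_2_ KO DCs 1 of 10 genes (*Pparg*, 0.63 ± 0.11, limma adjusted p = 6.09e-05) was higher beside 30.3%, and *Abca1*, *Abcg1*, *Cd36*, *Fabp5*, *Lpl* and *Ch25h* were lower (6 of 10 beside 32.5%). *Abca1* (−3.93 ± 0.12, limma adjusted p = 2.67e-17) and *Ch25h* (−2.60 ± 0.08, limma adjusted p = 4.57e-17) were the farthest, and under the same total *Fabp5* turned to 0.18, *Apoe* to 0.35, *Cd36* to 0.03 and *Nr1h3* to 0.19, which are −0.28, −0.11, −0.43 and −0.27 from the median. Also under the same total, *Abcg1* and *Lpl* (−0.07 and −0.01) did not pass and *Fabp4* passed (0.59). Under that scaling 8056 of 17875 genes were higher and 2679 lower for confined cPLA_2_ WT DCs, and 10122 and 2993 for confined cPLA_2_ KO DCs. Of all calls, 45.18% (cPLA_2_ WT) and 48.25% (cPLA_2_ KO) were higher, and 75.04% and 77.18% under the same total. The call of *Pparg* in confined cPLA_2_ WT DCs (−0.35) ended without confined replicate 1 or 3 (adjusted p = 0.0512 and 0.0546) and that of *Fabp4* (−0.73) without confined replicate 1 (adjusted p = 0.0517) or with the compared conditions alone (0.0632). Under the same total neither passed (adjusted p = 0.695 and 0.113). *Nr1h3* in confined cPLA_2_ KO DCs (−0.25) passed only without LPS cPLA_2_ KO replicate 1 (−0.40, adjusted p = 0.0402) or without both libraries that lack Y reads (−0.52, adjusted p = 0.002). The comparisons with confinement, LPS and genotype share their nonconfined or confined libraries, so their values stand side by side and no overlap between them was computed.

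The counts of gene lists below stand beside the shares of all genes called higher and lower, which were 28.2% and 28.4% for confinement of cPLA_2_ WT DCs, 22.8% and 23.4% for cPLA_2_ KO DCs, 10.2% and 15.6% for the interaction and 37.2% and 34.3% for LPS. They were 4.78% and 4.11% between genotypes without confinement and 18.8% and 20.6% with it, and a count near its share is not a result about the list. These shares do not apply to list counts under the same total, which stand beside the counts of all genes given above for that scaling. Receptors and coactivators beside *Nr1h3* and *Pparg* moved in different directions in confined cPLA_2_ WT DCs. Of the LXR and RXR receptors, 2 of 4 tested rose, *Nr1h3* and *Nr1h2*, and 0 fell by limma (0 at an unadjusted p under 0.05, by edgeR and by DESeq2, but 1 rose and 2 fell under the same total), with *Nr1h2* (LXRβ) at 0.36 ± 0.05 (adjusted p = 4.7e-06). Of the PPAR receptors and coactivators, 1 of 3 rose, *Ppard* (1.22 ± 0.06, adjusted p = 3.04e-13), and 1 fell, *Ppargc1b* (−1.05 ± 0.37, adjusted p = 0.0195), which did not pass without nonconfined replicate 1 or 3 or confined replicate 2 (adjusted p = 0.0507, 0.0582 and 0.114). The nuclear receptor coactivator *Ncoa1* fell (−0.42 ± 0.09, adjusted p = 0.000404). With LPS, 2 of the 4 LXR and RXR receptors tested rose and 2 fell. *Nr1h2* rose (0.66 ± 0.04, adjusted p = 4.75e-13) while *Rxra*, which encodes 1 of the RXR partners, fell (−1.32 ± 0.13, adjusted p = 4.36e-09). *Ppard* also rose with LPS (0.95 ± 0.04, adjusted p = 1.56e-14), and *Ppargc1b* fell (−3.50 ± 0.26, adjusted p = 7.67e-11). *Ncoa1* fell with LPS as well (−0.48 ± 0.06, adjusted p = 5.9e-07). The change with confinement was more positive in cPLA_2_ KO DCs for *Rxra* (0.75 ± 0.25, adjusted p = 0.0311) and more negative for *Ppard* (−0.36 ± 0.09, adjusted p = 0.00369). The call of *Rxra* ended without nonconfined cPLA_2_ WT replicate 1 or 2, nonconfined cPLA_2_ KO replicate 1, confined cPLA_2_ WT replicate 2 or 3 or confined cPLA_2_ KO replicate 1 or 3 (adjusted p from 0.0567 to 0.0842) or without the filter (0.056), and that of *Ppard* under the same total (−0.17, adjusted p = 0.134). In nonconfined DCs *Nr1h2* was higher in cPLA_2_ KO libraries (0.20 ± 0.05, adjusted p = 0.0183), a call that ended without cPLA_2_ WT replicate 2 or 3 or cPLA_2_ KO replicate 1 or 3 (adjusted p from 0.067 to 0.0855).

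The LXR target genes, with *Abca1*, *Abcg1* and *Apoe* among them, held both rises and falls. In confined cPLA_2_ WT DCs 3 of 12 rose, near the share of 28.2% of all genes, and 7 fell, beside 28.4% (2 and 8 under the same total), with a median of −0.41 beside −0.01 over all genes. The stearoyl-CoA desaturases *Scd1* (−1.63 ± 0.19, adjusted p = 1.52e-07) and *Scd2* (−1.81 ± 0.19, adjusted p = 3.6e-08) fell. In confined cPLA_2_ KO DCs 3 rose and 4 fell (median −0.17), and 5 of 12 had a more positive and 1 a more negative change than in cPLA_2_ WT DCs, with *Scd2* at 1.29 ± 0.26 (adjusted p = 0.000808). Nonconfined cPLA_2_ KO DCs had 1 of 12 higher and 5 lower, among them *Scd1*, at 447, 442 and 429 normalized counts in cPLA_2_ WT and 128, 117 and 115 in cPLA_2_ KO libraries (−1.86 ± 0.19, adjusted p = 2.32e-06). With LPS 7 of 12 were higher and 2 lower, but 3 and 8 under the same total (median 0.22, or −0.27). *Mylip*, which marks the low-density lipoprotein receptor for breakdown, rose (1.91 ± 0.09, adjusted p = 2.08e-14), as did the phospholipid remodeling enzyme *Lpcat3* (0.58 ± 0.03, adjusted p = 1.46e-12).

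More of the PPAR target genes rose than fell with confinement, 9 of 12 against 1 in cPLA_2_ WT DCs (5 against 2 under the same total) and 9 against 0 in cPLA_2_ KO DCs by limma (8 against 1 under the same total). For that count of 0 there was 1 at an unadjusted p under 0.05, 1 by edgeR and 0 by DESeq2. Their medians were 0.31 and 0.51, beside −0.01 and 0.01 over all genes. *Plin2*, which coats lipid droplets, was 6471 ± 47.8 normalized counts (SD, n = 3) in nonconfined and 13531 ± 289 in confined cPLA_2_ WT DCs (1.06 ± 0.04, adjusted p = 6.12e-16). *Angptl4*, an inhibitor of lipoprotein lipase, rose as well (1.10 ± 0.23, adjusted p = 0.000388). The carnitine palmitoyltransferase *Cpt1a* had the more positive change in cPLA_2_ KO DCs (0.50 ± 0.10, adjusted p = 0.000636). With LPS 7 of 12 were higher and 2 lower (3 and 7 under the same total), with *Plin2* at 1.17 ± 0.03 (adjusted p = 5.93e-20) and *Acadl*, an enzyme of fatty acid oxidation, at 0.91 ± 0.03 (adjusted p = 9.78e-17). In confined DCs 7 of 12 were higher in cPLA_2_ KO than in cPLA_2_ WT libraries and 3 lower, and in nonconfined DCs 2 and 1.

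Of the scavenger and lipoprotein receptors, *Cd36* among them, 6 of 10 rose and 1 fell in confined cPLA_2_ WT DCs (median 0.35), and in confined cPLA_2_ KO DCs 8 rose and 0 fell by limma (0 at an unadjusted p under 0.05, by edgeR, by DESeq2 and under the same total). The oxidized lipoprotein receptor *Olr1* was at 256, 252 and 268 normalized counts in nonconfined and 3287, 3379 and 3237 in confined cPLA_2_ WT libraries (3.67 ± 0.12, adjusted p = 2.36e-16). *Cxcl16*, a chemokine that also binds oxidized lipoprotein, rose in cPLA_2_ WT DCs (1.85 ± 0.05, adjusted p = 7.88e-18), and its change was far less positive in cPLA_2_ KO DCs (−1.56 ± 0.07, adjusted p = 1.73e-13). With LPS 7 of 10 rose and 2 fell (7 and 3 under the same total), with a median of 1.43 beside 0.02 over all genes. With the labels averaged *Marco* rose by 4.94 ± 0.06 (adjusted p = 6.82e-25). It was at 156 ± 13.2 and 723 ± 47.6 normalized counts in nonconfined cPLA_2_ WT and cPLA_2_ KO DCs and at 10615 ± 787 and 10099 ± 978 in LPS libraries labelled cPLA_2_ WT and cPLA_2_ KO. *Olr1* rose too (3.90 ± 0.09, adjusted p = 4.22e-20). *Marco* was also higher in nonconfined cPLA_2_ KO than cPLA_2_ WT DCs (2.21 ± 0.08, adjusted p = 3.83e-13), at 705, 686 and 776 against 144, 153 and 170.

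The fatty acid binding, activation and transport genes divided in confined cPLA_2_ WT DCs, with 5 of 10 higher and 4 lower. *Fabp3*, another fatty acid carrier, rose (2.41 ± 0.20, adjusted p = 8.13e-10), in contrast to *Fabp5*, and the acyl-CoA synthetase *Acsl5* fell (−1.11 ± 0.05, adjusted p = 4.88e-14). In cPLA_2_ KO DCs 4 rose and 4 fell, and the change of *Fabp3* was less positive (interaction −2.05 ± 0.28, adjusted p = 6.43e-06). With LPS 5 rose and 4 fell (4 and 6 under the same total), and the largest rises were those of *Fabp3* (4.04 ± 0.14, adjusted p = 9.03e-17) and *Acsl1* (3.36 ± 0.10, adjusted p = 1.53e-17). The transporter *Slc27a3* was higher in nonconfined cPLA_2_ KO DCs (0.52 ± 0.14, adjusted p = 0.0211), a call that ended without replicate 1 or 3 of either genotype (adjusted p from 0.0582 to 0.123).

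Lipid droplet and neutral lipid genes rose in 7 of 13 cases and fell in 2 in confined cPLA_2_ WT DCs (6 and 6 under the same total), and in cPLA_2_ KO DCs in 12 and 1. Their change was more positive in cPLA_2_ KO DCs in 7 and more negative in 3. *Hilpda*, which restrains the breakdown of stored triglycerides, was at 263, 251 and 249 in nonconfined and 7687, 7365 and 7545 in confined cPLA_2_ WT libraries (4.88 ± 0.13, adjusted p = 4.3e-18), and at 2611, 2854 and 2866 in confined cPLA_2_ KO libraries (interaction −1.87 ± 0.18, adjusted p = 5.27e-08). *Dgat2*, which makes triglycerides, rose in cPLA_2_ WT DCs (2.03 ± 0.07, adjusted p = 3.87e-16). With LPS 7 rose and 6 fell (3 and 10 under the same total), with *Hilpda* at 4.83 ± 0.09 (adjusted p = 2.24e-21) and the cholesteryl ester hydrolase *Nceh1* at −2.48 ± 0.06 (adjusted p = 4.24e-19). In nonconfined DCs *Hilpda* was higher in cPLA_2_ KO libraries (0.43 ± 0.13, adjusted p = 0.0388), which did not pass without any of the 6 libraries (adjusted p from 0.0749 to 0.123), by edgeR (0.122) or by DESeq2 (0.0622). It also did not pass without the filter (0.0728), under the same total (0.0754) or with a replicate block (0.062).

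Of lipoprotein lipase and its regulators, 2 of 6 rose and 2 fell in confined cPLA_2_ WT DCs (2 and 4 under the same total), 4 rose and 1 fell in cPLA_2_ KO DCs, and 2 rose and 3 fell with LPS (1 and 4 under the same total). *Lmf1*, needed for the folding of the lipase, fell in confined cPLA_2_ WT DCs (−0.71 ± 0.09, adjusted p = 8.21e-07) and with LPS (−0.44 ± 0.06, adjusted p = 2.86e-06), and the change of the sorting receptor *Sort1* was more positive in cPLA_2_ KO DCs (0.57 ± 0.07, adjusted p = 6.82e-07). *Apoc2*, an activator of the lipase whose entry in the table is merged with *Apoc4* and *Gm44805*, fell in confined cPLA_2_ WT DCs (−0.70 ± 0.15, adjusted p = 0.000548) and rose with LPS (1.20 ± 0.11, adjusted p = 2.12e-09). It was lower in nonconfined cPLA_2_ KO DCs (−0.62 ± 0.15, adjusted p = 0.0159), a call that ended without cPLA_2_ WT replicate 1 or 2 or cPLA_2_ KO replicate 1 or 3 (adjusted p from 0.0558 to 0.0866) or with the compared conditions alone (0.0668). Of the apolipoproteins, 4 of 7 could be tested. In confined cPLA_2_ WT DCs 2 rose and 2 fell (by limma 0 and 2 under the same total), with *Apobr* at 0.27 ± 0.08 (adjusted p = 0.00847), which did not pass without nonconfined replicate 3 (0.21, adjusted p = 0.0549) or under the same total (0.04, adjusted p = 0.666). With LPS 2 rose and 0 fell by limma (0 at an unadjusted p under 0.05, by edgeR and by DESeq2, but 2 and 2 under the same total), and *Apol7c* rose by 4.17 ± 0.06 (adjusted p = 7.21e-24) with the labels averaged. It was at 7885 ± 43.9 and 6021 ± 289 normalized counts in nonconfined cPLA_2_ WT and cPLA_2_ KO DCs and at 121940 ± 14560.2 and 127383 ± 16918 in LPS libraries labelled cPLA_2_ WT and cPLA_2_ KO. The change of *Apol7c* with confinement was more negative in cPLA_2_ KO DCs (−1.30 ± 0.11, adjusted p = 8.59e-09).

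Genes of cellular cholesterol transport rose in 7 of 11 cases and fell in 2 in confined cPLA_2_ WT DCs (5 and 4 under the same total), and all 11 differed between the genotypes in their change, 4 more positive and 7 more negative in cPLA_2_ KO DCs, also under the same total. The sterol transfer protein genes *Gramd1a* (0.92 ± 0.06, adjusted p = 2.03e-11) and *Gramd1b* (0.64 ± 0.07, adjusted p = 8.83e-08) rose in cPLA_2_ WT DCs, and *Gramd1a* had the more negative change in cPLA_2_ KO DCs (−0.86 ± 0.08, adjusted p = 6.14e-08). With LPS 9 rose and 2 fell (5 and 4 under the same total), with *Gramd1b* at 1.58 ± 0.05 (adjusted p = 1.91e-17) and *Tspo* at 0.93 ± 0.03 (adjusted p = 2.86e-16). *Stard4*, a carrier of cholesterol, was lower in nonconfined cPLA_2_ KO DCs (−0.29 ± 0.06, adjusted p = 0.00472). Of the oxysterol genes, 5 of 7 could be tested, and 3 rose and 1 fell in confined cPLA_2_ WT DCs (3 and 2 under the same total). *Sult2b1*, a sterol sulfotransferase, rose from 5.21 ± 2.81 to 112 ± 16.1 normalized counts (4.31 ± 0.50, adjusted p = 2.21e-07). *Cyp27a1*, a sterol hydroxylase of mitochondria, fell (−2.55 ± 0.20, adjusted p = 4.44e-10) and fell also with LPS (−3.38 ± 0.14, adjusted p = 3.02e-15), while *Gpr183*, the receptor for an oxysterol made from the product of *Ch25h*, rose with LPS (2.14 ± 0.04, adjusted p = 5.85e-21). The change of *Gpr183* with confinement was more negative in cPLA_2_ KO DCs (−1.10 ± 0.09, adjusted p = 1.24e-09). *Ccr7*, the chemokine receptor of migrating DCs, gives the scale of these changes: it rose in confined cPLA_2_ WT DCs (1.05 ± 0.05, limma adjusted p = 5.4e-14), fell in confined cPLA_2_ KO DCs (−0.88 ± 0.05, limma adjusted p = 3.51e-12) and rose with LPS (1.66 ± 0.03, limma adjusted p = 1.08e-20).

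Adhesion was the means of sorting DCs from other cells of the marrow cultures. Markers of other cell types in the cultures moved with genotype and treatment, and in bulk RNA fewer cells of a type and less RNA per cell cannot be told apart. All 10 DC markers were detected, with *Cd74* the most abundant, and 10 fell in confined cPLA_2_ KO DCs while 1 rose and 7 fell in confined cPLA_2_ WT DCs. Their summed level was 508999, 483819 and 488173 normalized counts in nonconfined cPLA_2_ WT and 616005, 574844 and 605133 in nonconfined cPLA_2_ KO libraries, and 478348, 446611 and 458344 and 426157, 411759 and 426787 in confined cPLA_2_ WT and cPLA_2_ KO libraries. It was 753056, 644693 and 684868 (labelled cPLA_2_ WT) and 646192, 739231 and 704219 (labelled cPLA_2_ KO) in LPS libraries. The eosinophil markers (6 genes, *Prg2* the most abundant) summed to 30900, 30677 and 30658 in nonconfined cPLA_2_ WT and 75079, 69958 and 71807 in nonconfined cPLA_2_ KO libraries. Their sums were 8395, 7990.2 and 7908 in confined cPLA_2_ WT and 19871, 19456 and 20485 in confined cPLA_2_ KO libraries. The eosinophil markers were thus higher in cPLA_2_ KO libraries, with 5 of 6 called higher, as *Fabp4* and *Nr1h3* were, and *Siglecf* called lower, in nonconfined and in confined DCs, and 5 of 6 fell with confinement in each genotype. In LPS libraries their sums were 43635, 25499 and 34690.4 (labelled cPLA_2_ WT) and 25362, 43477 and 35315 (labelled cPLA_2_ KO), with the lowest in the libraries with nearly no Y reads, as for *Fabp4* and *Nr1h3*. The neutrophil markers (10 genes, *S100a9* the most abundant) summed to 239174, 244267 and 242642 and 370358, 333024 and 358226 in nonconfined cPLA_2_ WT and cPLA_2_ KO libraries. In confined libraries they summed to 154396, 147187 and 144998 (cPLA_2_ WT) and 334024, 346858 and 330984 (cPLA_2_ KO), and in LPS libraries to 309149, 290445 and 292501 and 277078, 312719 and 294718. Of these 10, 8 were higher in cPLA_2_ KO DCs without and 10 with confinement, and 9 fell with confinement in cPLA_2_ WT DCs.

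The macrophage markers (10 genes, 9 tested) summed to 32229.6, 31101 and 31962 in nonconfined cPLA_2_ WT and 37365, 38769.6 and 37881 in nonconfined cPLA_2_ KO libraries. They summed to 167062, 158899 and 159763 in confined cPLA_2_ WT and 52877, 49267 and 52689 in confined cPLA_2_ KO libraries, and to 121632, 126471 and 119020 and 122131, 117226 and 121362 in LPS libraries. *Cd14*, which DCs also express, was the most abundant gene of that sum, *Vsig4* was under 10 in all libraries, and 2 of 9 markers rose and 4 fell in confined cPLA_2_ WT DCs (1 and 5 under the same total). The mast cell and basophil markers (7 genes, *Cpa3* the most abundant) summed to 6243, 6452 and 6300 and 9832, 9441 and 9355 in nonconfined cPLA_2_ WT and cPLA_2_ KO libraries, to 2681, 2511 and 2549 and 4183, 4077 and 4221 in confined ones, and to 6205, 6065 and 6084 and 5940, 6351 and 6523 in LPS libraries. Of these 7, 6 fell with confinement in cPLA_2_ WT DCs and 7 in cPLA_2_ KO DCs. The B and T cell markers (6 genes, *Cd3g* the most abundant) summed to 2501, 2510.4 and 2463 and 3220.3, 2916 and 3120.1 in nonconfined cPLA_2_ WT and cPLA_2_ KO libraries, to 794, 835 and 711 and 1061, 1272 and 1150.1 in confined ones, and to 540.3, 499.8 and 521 and 435, 564 and 565 in LPS libraries, and 4 of 6 fell with confinement in each genotype. Of the adipocyte markers, which matter for *Fabp4* and *Lpl* because fat cells express both, *Adipoq*, *Plin1*, *Lep* and *Cfd* were under 10 in all libraries and the sum of all 6 reached 40.6 at most, with *Retn* the most abundant. *Fabp4* and *Lpl* were measured with these defining markers of fat cells near 0. The part of these cell types in the results was not tested.

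The genes whose levels followed *Nr1h3*, *Pparg* and *Ch25h* most closely were sought among 10554 genes by Pearson correlation over the 18 libraries, as a description without a test. The libraries fall into 6 conditions, so these values mostly follow differences between conditions. For *Nr1h3* they were *Mpeg1* (r = 0.968), *Mctp1* (0.962) and *Rgl1* (0.952). For *Pparg* the closest were *Rassf3* (0.875), *Plcxd2* (0.847) and *Mirt1* (0.845). For *Ch25h* the values were higher, with *Mvp* (0.998), *Ccl4* (0.997) and *Cdc42ep2* (0.997). Among the 10 genes themselves, *Abca1* and *Lpl* (0.899), *Cd36* and *Ch25h* (0.869), *Abca1* and *Ch25h* (0.867), *Apoe* and *Fabp5* (0.843) and *Abcg1* and *Fabp5* (0.833) had the highest correlations, and *Fabp4* and *Lpl* the lowest (−0.461).

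Promoter sequences are shown for *Abca1*, *Ch25h* and *Cd36*, which rose together in confined cPLA_2_ WT DCs and with LPS, and for *Pparg*, which rose in confined cPLA_2_ KO DCs. RefSeq promoters of build GRCm38.p6 (250 bases before to 50 after a start) were at hand for 6 of the 10 genes, in 11 windows, and none for *Abcg1*, *Fabp4*, *Fabp5* and *Lpl*. The motifs searched on both strands were the nuclear receptor core site AGGTCA, its direct repeat with a gap of 4 bases (LXR type) or 1 base (PPAR type), an interferon-response core (GAAA, any 2 bases, GAAA) and an NF-kB type motif (GGGA, any 2 bases, TTCC). A repeat holds the core site and so overlaps with it. The core site was found in 16.3% of 32851 promoters, the repeats in 0.0152% and 0.0396%, the interferon core in 3.44% and the NF-kB type in 1.47%. In the 11 windows only core sites were found, 1 in each of 2 *Pparg* windows and 1 on the opposite strand in *Cd36*, which describes letters and not binding. Only exact matches were counted, and exact repeats are rare among all promoters. Their absence here therefore does not show that repeats with other letters are missing from these windows. Capitals mark these core sites, and each sequence reads 5′ to 3′ on the strand of the gene: *Abca1* (chr4:53159846-53160145, minus strand), *Ch25h* (chr19:34475099-34475398, minus), *Cd36* (chr5:17835847-17836146, minus) and *Pparg* (chr6:115362099-115362398, plus).
Abca1: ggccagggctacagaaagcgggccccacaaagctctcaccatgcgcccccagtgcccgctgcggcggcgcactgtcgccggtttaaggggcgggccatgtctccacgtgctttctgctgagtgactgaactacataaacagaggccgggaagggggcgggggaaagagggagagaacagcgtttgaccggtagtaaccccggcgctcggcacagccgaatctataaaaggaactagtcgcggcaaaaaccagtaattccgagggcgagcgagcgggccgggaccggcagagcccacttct
Ch25h: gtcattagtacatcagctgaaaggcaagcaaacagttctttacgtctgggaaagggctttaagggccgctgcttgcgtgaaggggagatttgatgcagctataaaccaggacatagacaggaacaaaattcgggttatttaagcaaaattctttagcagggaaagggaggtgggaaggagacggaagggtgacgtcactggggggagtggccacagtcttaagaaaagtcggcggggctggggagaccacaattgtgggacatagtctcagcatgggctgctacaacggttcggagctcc
Cd36: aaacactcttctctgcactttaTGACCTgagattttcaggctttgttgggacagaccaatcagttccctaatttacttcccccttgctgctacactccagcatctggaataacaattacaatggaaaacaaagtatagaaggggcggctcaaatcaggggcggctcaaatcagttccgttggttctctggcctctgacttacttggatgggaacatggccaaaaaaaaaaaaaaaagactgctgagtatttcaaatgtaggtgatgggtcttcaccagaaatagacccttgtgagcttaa
Pparg: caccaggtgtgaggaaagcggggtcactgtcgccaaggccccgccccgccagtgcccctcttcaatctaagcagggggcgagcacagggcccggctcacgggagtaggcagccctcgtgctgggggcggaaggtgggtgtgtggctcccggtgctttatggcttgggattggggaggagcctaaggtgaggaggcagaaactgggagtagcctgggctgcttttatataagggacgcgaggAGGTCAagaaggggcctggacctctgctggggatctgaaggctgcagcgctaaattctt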

How the data were processed

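The input was the table of normalized counts the authors deposited, which holds signal per gene for 18 libraries. The submitters' notes name STAR 2.7.5a, featureCounts 1.5.0, DESeq2 and R 3.5.3, and the Methods name the Mouse FAST DB annotation on mm39. Of the 62197 genes, 37020 had no symbol. Dividing each library by the step between its values gave whole reads for 100% of values (tolerance 0.001, largest deviation 9.31e-10). These recovered reads were used for the count tests of edgeR 4.0.16 and DESeq2 1.42.0.

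Genes reaching 10 normalized counts in 3 or more libraries were tested on log2 values after adding 1. A single limma 3.58.1 fit in R 4.3.3 gave 11 comparisons of the 6 conditions, with p adjusted by Benjamini-Hochberg over all genes tested, and a call is an adjusted p under 0.05. LPS was compared with its genotype labels averaged and within each label. Errors are SE for changes and SD for levels.

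The alternatives tried were adding 0.5 or 5, testing without the filter or with a filter at 100 normalized counts, scaling to 1 common total, TMM scaling, edgeR, DESeq2, fitting the compared conditions alone, a replicate block, and leaving out each library in turn. Leaving out the LPS libraries with a Y sum under 20 was added after seeing the data.

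The members, 12 pathway lists (98 genes) and 7 marker lists were chosen with earlier results of these data known, and 1 pathway list is not reported here. List genes are named where they passed the test, reached a mean of 100 normalized counts in a compared condition, had groups without overlap and were among the largest changes of their list. Positions came from the table and were compared with GENCODE M39, and promoters are RefSeq windows of GRCm38.p6. Tables and figures were made with Python 3.11.15, pandas 2.3.3 and matplotlib 3.10.9.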

Additional observations from a re-analysis of the deposited data

Results flagged for a closer look

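The change with confinement differed between cPLA_2_ KO and cPLA_2_ WT DCs for 5 of the 10 genes. On the log2 scale the difference (cPLA_2_ KO minus cPLA_2_ WT) was 0.77 for *Pparg*, −2.64 for *Abca1*, 0.76 for *Abcg1*, 0.24 for *Fabp5* and −1.26 for *Ch25h*. The value of *Fabp5* did not pass the test without any of 10 of the 12 libraries, by edgeR (adjusted p = 0.0903), with TMM scaling (0.0861), without the filter (0.0764) or with a replicate block (0.0608).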

How the results depend on the processing

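Of 2000 values of the 10 genes under alternatives, 1883 kept their call, 27 became stronger, 73 weaker and 17 reversed, a turn with either value past the test. Under 1 common total for all libraries, the log2 change of *Lpl* with confinement of cPLA_2_ WT DCs became −0.17. With LPS and labels averaged it became −0.40 for *Pparg*, −0.21 for *Abcg1*, −0.30 for *Fabp5*, −0.46 for *Apoe* and −0.0637 for *Lpl*. Within the label cPLA_2_ WT it became −0.26 for *Abcg1*, −0.23 for *Fabp5*, −0.31 for *Apoe* and −0.26 for *Lpl*, and within the label cPLA_2_ KO −0.15 for *Abcg1* and −0.37 for *Fabp5*. Confined DCs against LPS gave 0.11 for *Lpl* (cPLA_2_ WT) and 0.0342 for *Cd36*, 0.18 for *Fabp5* and 0.35 for *Apoe* (cPLA_2_ KO). These turns come from the scaling, which moved the median of all genes in the same direction. With the LPS libraries without Y reads left out, *Fabp4* with LPS became 0.31, and the cause was not tested. The count of calls between genotypes in nonconfined DCs was 5 and ranged from 2 to 6 with 1 library left out. With a replicate block the counts were 6 in place of 7 for confinement of cPLA_2_ WT DCs, 4 in place of 6 for cPLA_2_ KO DCs, 4 in place of 5 for the interaction and 4 in place of 5 for genotype in nonconfined DCs. Correlations between libraries of the same replicate number ran from −0.142 to 0.338, and in no comparison were all above 0.1. They were not set beside correlations between libraries of different numbers. Whether replicate numbers pair samples was therefore not tested. Groups of 3 libraries, the labels of the LPS libraries and donor sex limit all comparisons of genotype.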
